A study of Rattus norvegicus with 8 samples.

Results

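The synaptic vesicle and release machinery was described by 44 genes, taken as every probe that is not a control and whose gene name in the deposited files is one of these symbols. They are 44 of 16381 gene symbols on the array and are read by 55 of its 30367 probes, with 2 probes for 11 genes and 1 probe for 33. Where counts are given, the probe with the highest mean over all arrays stands for a gene. All 44 genes could be tested, and all 55 probes were well above background on each of the 8 arrays with no saturated spot. Across the whole array, 13384 symbols and 23678 probes could be tested.

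The study asked how chronic water avoidance (WA) stress, which heightens visceral pain in rats, alters gene expression in the spinal cord. Male Wistar rats, 12 weeks old, stood for 1 h a day on a small platform surrounded by water on 10 consecutive days (stress, n = 4), or were handled instead (control, n = 4). The lumbar L6S1 cord was taken 24 h after the last session, its meninges were removed, and the RNA of the whole segment was hybridised to Agilent 1-colour arrays, with 1 array per rat. Neither group received a drug or carried an engineered allele, and only males were used.

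Transmitter is released when a vesicle SNARE protein and its partners on the plasma membrane zip together and pull both membranes into fusion. Synaptotagmins sense calcium, complexins clamp and then assist the SNARE complex, and RIM and Munc13 proteins prepare vesicles at the active zone, while NSF and the SNAP adaptors take used complexes apart and endophilin, dynamin and synaptojanin bring the membrane back. In the lumbosacral cord, terminals of primary afferents, interneurons and descending fibres carry these proteins. Neuronal mRNA lies mainly in cell bodies, here those in the segment, and some of the genes, such as Vamp3 and Napa, are also used in other cells. In bulk tissue, fewer cells of a type and less RNA per cell cannot be told apart.

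Each probe is 60 bases long, and some genes have probes at 2 places along the transcript. The probes of 5 genes with a pair far apart, and of 3 genes with large or separated differences, are printed 5′ to 3′ with their positions on the rn4 assembly. Capitals mark AATAAA, the hexamer that signals polyadenylation, so they mark probes near a possible end of the mRNA. The letters AATAAA occurred in 7 of the 55 probes and in 9.22% of all tested probes, and TTTATT, the same on the other strand, in 3 of the 55 and in 3.06%. The Napb probe spans 1354 bases of the genome and so crosses an exon junction, as do the only probes of Napa, Stxbp5 and Syngr1.
Vamp1 5′ probe, chr4:161337249-161337308, plus strand: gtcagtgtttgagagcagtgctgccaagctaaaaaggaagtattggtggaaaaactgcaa
Vamp1 3′ probe, chr4:161340363-161340422, plus strand: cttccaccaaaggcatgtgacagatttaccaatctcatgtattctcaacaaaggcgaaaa
Snap25 5′ probe, chr3:124893320-124893379, plus strand: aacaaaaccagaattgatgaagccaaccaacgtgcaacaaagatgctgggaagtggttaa
Snap25 3′ probe, chr3:124893776-124893835, plus strand: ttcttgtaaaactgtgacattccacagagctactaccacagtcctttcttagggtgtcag
Bsn 5′ probe, chr8:113367780-113367839, minus strand: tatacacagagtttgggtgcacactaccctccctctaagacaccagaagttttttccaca
Bsn 3′ probe, chr8:113364208-113364267, minus strand: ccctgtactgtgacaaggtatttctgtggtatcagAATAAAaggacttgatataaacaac
Rims2 5′ probe, chr7:74922085-74922144, plus strand: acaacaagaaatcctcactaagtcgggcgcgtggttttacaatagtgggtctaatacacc
Rims2 3′ probe, chr7:75271625-75271684, plus strand: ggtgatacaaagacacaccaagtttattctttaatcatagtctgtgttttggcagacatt
Cplx1 5′ probe, chr14:1762159-1762218, plus strand: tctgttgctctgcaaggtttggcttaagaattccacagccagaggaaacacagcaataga
Cplx1 3′ probe, chr14:1763113-1763172, plus strand: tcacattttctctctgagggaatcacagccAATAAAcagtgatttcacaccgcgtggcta
Napb probe, chr3:137447124-137448477, minus strand: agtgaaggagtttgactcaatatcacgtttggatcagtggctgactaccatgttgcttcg
Stx1a probe, chr12:22737112-22737171, minus strand: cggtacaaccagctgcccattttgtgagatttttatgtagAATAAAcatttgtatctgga
Syngr3 probe, chr10:13938377-13938436, minus strand: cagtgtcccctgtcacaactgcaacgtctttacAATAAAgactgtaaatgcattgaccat

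No gene of the release machinery passed the test between stressed and control rats. On the log2 scale of the signal, stress minus control, the differences ran from -0.32 for Stx1a to 1.07 for Napb with a median of 0.06, beside a median of 0.03 over all gene symbols. A positive difference was measured for 30 genes (68.2%, against 54.9% of all symbols) and a negative one for 14. With a covariate for the ratio of 5′ to 3′ probes on each array, described further on, the balance turned to 13 positive (29.5%, against 40.5%) and 31 negative. With limma and Benjamini-Hochberg adjustment over all tested probes, 0 of 44 genes reached an adjusted p below 0.1, where 3.51% of all gene symbols did (2.4% higher and 1.11% lower under stress). At the stricter threshold of 0.05 the count was again 0, against 0.471% of all symbols. At an unadjusted p below 0.05 there were 3 of 44 genes (6.82%), Sh3gl2 and Sv2c higher and Stx1a lower, where 19.6% of all symbols passed (11.7% higher and 7.96% lower). This count moved with the fit, to 9 genes with a robust variance trend (20.5% of all symbols), 15 without control replicate 2 (42.8%) and 0 without stress replicate 2 (14.1%). Over single probes, 0 of 55 reached an adjusted p below 0.1 by limma, against 3.68% of all tested probes. Only at Syngr3 (2.27% of the genes) did the 2 groups not overlap at the brightest probe, with the stressed rats lower, where 13% of all symbols showed such a gap (6.11% higher and 6.9% lower).

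The precision differed between genes. The standard error of the difference ranged from 0.074 to 0.50, with a median of 0.13. For 26 of 44 genes (59.1%) the whole 95% interval lay within 0.5 log2 units of 0, as it did for 54.9% of all gene symbols. Among these were synaptophysin (Syp), the abundant vesicle membrane protein, with an interval of -0.24 to 0.30, and the fast calcium sensor Syt2 with -0.25 to 0.09. For 4 genes, Napb, Rims2, Sv2b and Sv2c, the interval reached above 1, so that a doubling of the signal lay within the interval.

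**Figure D1:**
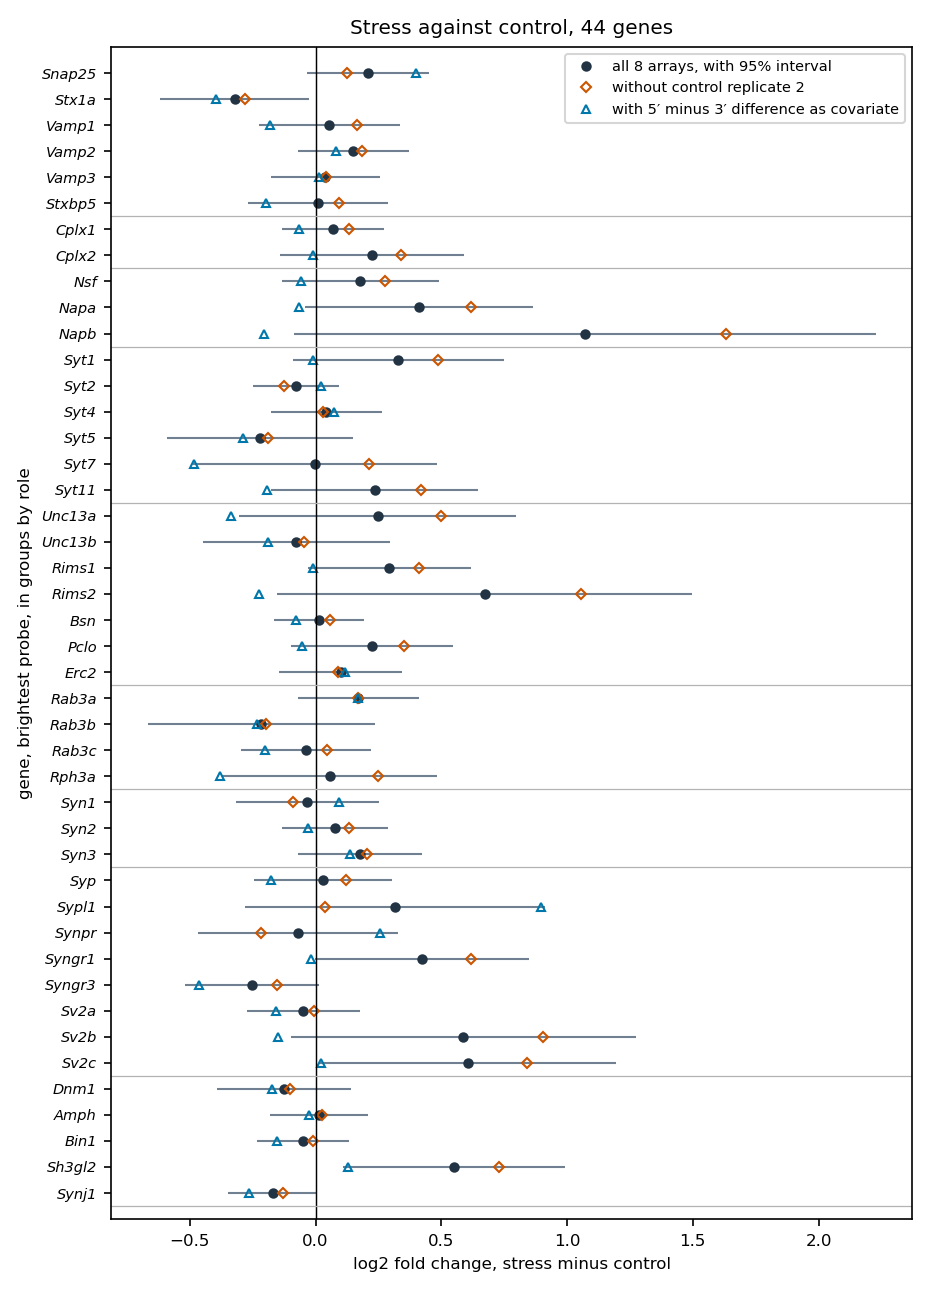
Log2 fold change of 44 release machinery genes, stress minus control, at the brightest probe and in groups by role. Filled circles with bars give the fit to 8 arrays with its 95% interval, diamonds the fit without control replicate 2, and triangles the fit with the end difference of each array (5′ minus 3′ probes) as a covariate. Napb stands at 1.07, 1.63 and -0.21.

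One control rat stood apart at these genes. Control replicate 2 was the highest of the 4 controls at 31 of 44 genes and the lowest at 5, where over all gene symbols it was highest at 53.6% and lowest at 27.2%. Its signal was nearer to the mean of the stressed rats than to the mean of the other controls at 29 genes (65.9%), as at 66.4% of all symbols. The same array also differed in the ratio of 5′ to 3′ probes. Over 1880 transcripts of other genes with probes at least 300 bases apart, the median log2 difference between 5′ and 3′ probe, centred over the arrays, was 0.22 in control 2 and -0.30, -0.30 and -0.18 in controls 1, 3 and 4. In the stressed rats it was 0.17, 0.15, 0.17 and 0.09, which was not distinguishable between groups of 4 (two-sided exact permutation test, p = 0.143, with 0.0286 the smallest possible). The part of this difference in the results for the release machinery was not tested. Differences without control 2, or with this end difference of the arrays as a covariate, are given beside many of the genes. Within groups the end difference varied mainly through control 2, with an SD of 0.25 in controls and 0.036 in stressed rats. A fit with it as a covariate therefore depends largely on that array. All stressed rats lay in row 1 of the single slide and all controls in row 2, so slide row and stress cannot be told apart.

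**Figure D2:**
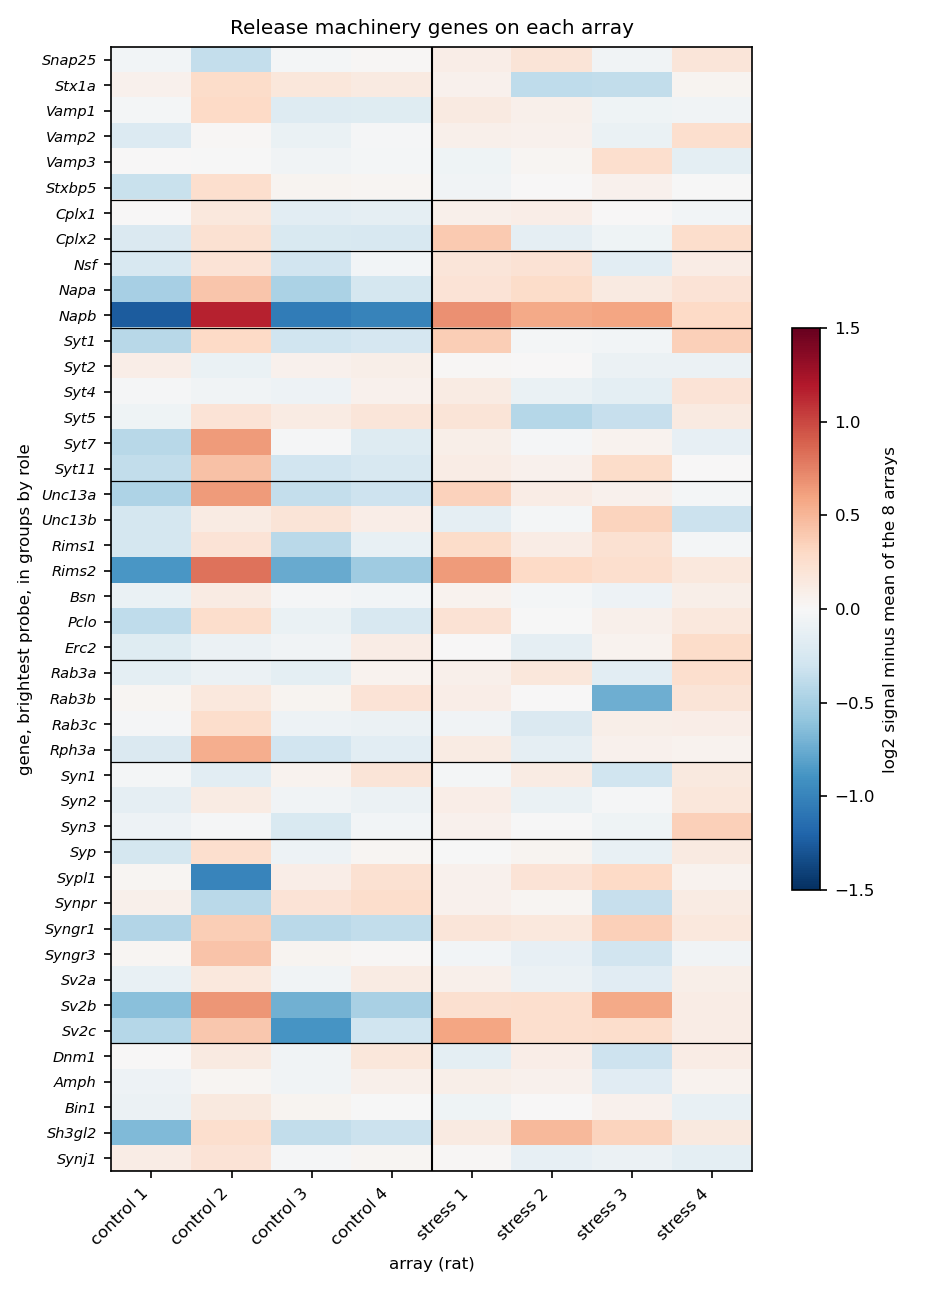
Log2 signal of each release machinery gene on each array, as the difference from its own mean over the 8 arrays (colour, log2 units), with control arrays at left and stress arrays at right. Control 2 is coloured like the stressed arrays at Napb, Rims2, Sv2b and Syngr1, and opposite to all other arrays at Sypl1.

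The SNARE proteins and their direct partners gave a median difference of 0.05, with 5 of 6 genes above 0 and none past the threshold. Syntaxin 1A (Stx1a), a plasma membrane SNARE of neurons, had the most negative difference of all 44 genes. Its log2 signal, where 0 is the 75th percentile of the array, was 0.86, 1.08, 0.97 and 0.94 in controls 1 to 4 and 0.87, 0.42, 0.43 and 0.84 in stressed rats 1 to 4. Stressed rats 2 and 3 lay far below every control, stressed rat 4 lay just below the lowest control and stressed rat 1 lay within their range. The difference was -0.32 ± 0.13 (SE, n = 4 per group, limma, adjusted p = 0.221). It was -0.28 without control 2 and -0.40 with the covariate, and its sign was the same in all 19 fits.

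Snap25, the SNARE partner of syntaxin on the plasma membrane, differed the other way. At its brightest probe, the 3′ one of the pair, the signal was 4.85, 4.54, 4.87 and 4.91 in controls and 4.99, 5.09, 4.85 and 5.08 in stressed rats. Control 2 was the lowest of all 8 arrays here, unlike at most of the other genes, and stressed rat 3 fell within the range of the controls. The difference was 0.21 ± 0.11 (SE, limma, adjusted p = 0.297). The 5′ probe, 456 bases upstream, gave 3.55, 3.18, 3.60 and 3.77 in controls and 3.85, 4.07, 3.75 and 4.07 in stressed rats. Control 4 and stressed rat 3 overlapped, and the difference was 0.41 ± 0.14 (SE, limma, adjusted p = 0.180). With the covariate, the difference at the brightest probe was 0.40 ± 0.09 (SE, limma, adjusted p = 0.0689), and without control 2 it was 0.13.

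The vesicle SNAREs showed small differences at their brightest probes. Synaptobrevin 2 (Vamp2) differed by 0.15 ± 0.10 (SE), and Vamp3, the form also found outside neurons, by 0.04 with an interval from -0.18 to 0.26. Tomosyn (Stxbp5), which competes with synaptobrevin for syntaxin, differed by 0.01 with an interval from -0.27 to 0.29.

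For synaptobrevin 1 (Vamp1), the form prominent in spinal cord, the answer depended on the probe. The 3′ probe read 5.81, 6.15, 5.66 and 5.67 in controls and 5.98, 5.93, 5.79 and 5.80 in stressed rats, a difference of 0.06 ± 0.12 (SE). At the 5′ probe, 2188 bases upstream in the transcript, the signal was -0.61, 0.89, -0.50 and -0.31 in controls and 0.63, 0.63, 0.57 and 0.42 in stressed rats. Controls 1, 3 and 4 lay well below the stressed rats there, and control 2 lay above all of them. The difference at the 5′ probe was 0.69 ± 0.31 (SE, limma, adjusted p = 0.256). Without control 2 it was 1.04 ± 0.09 (SE, limma, adjusted p = 0.000788), and with the covariate -0.10 ± 0.08 (SE). The 3′ probe of Vamp1 gave 0.16 and -0.18 in these fits.

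Both complexins, which bind the assembled SNARE complex, had small differences. Cplx1 differed by 0.07 with a 95% interval from -0.13 to 0.27. At Cplx2 the difference was 0.23 ± 0.16 (SE), with stressed rats at 1.0, 0.47, 0.54 and 0.87 and controls at 0.40, 0.83, 0.38 and 0.37. The stressed rats were above the other 3 controls and control 2 lay among them. Without control 2 the Cplx2 difference was 0.34, and with the covariate -0.01.

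The proteins that take SNARE complexes apart had the highest median difference of the 9 role groups, 0.41, with 3 of 3 genes above 0 and none past the threshold. The signal of Napb, the SNAP adaptor largely restricted to the nervous system, was -4.0, -1.60, -3.80 and -3.75 in controls and -2.07, -2.18, -2.16 and -2.45 in stressed rats. The stressed rats lay close together and above controls 1, 3 and 4, and control 2 was the highest of all 8 arrays. The difference was 1.07 ± 0.50 (SE, limma, adjusted p = 0.271), and its large error came with a control SD of 1.13 against 0.16 in stressed rats. Without control 2 it was 1.63 ± 0.11 (SE, limma, adjusted p = 0.000572), and with the covariate it was -0.21 ± 0.14 (SE), of opposite sign.

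Napa, the related adaptor used in all cells, had control 2 highest as well. It read 0.59, 1.50, 0.61 and 0.82 in controls and 1.29, 1.36, 1.21 and 1.29 in stressed rats. Control 2 exceeded every stressed rat and the other controls fell below them, with a difference of 0.41 ± 0.20 (SE, limma, adjusted p = 0.277). Without control 2 it was 0.62, and with the covariate -0.07. For Nsf, the ATPase that both adaptors recruit, the difference was 0.18 ± 0.14 (SE), and stressed rats at 0.51, 0.55, 0.16 and 0.43 overlapped with controls at 0.09, 0.53, 0.03 and 0.29. Without control 2 the Nsf difference was 0.28, and with the covariate -0.06.

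Among the 6 synaptotagmins the differences were centred on 0, with a median of 0.02, 3 above 0 and 3 below. Syt1, the calcium sensor of fast release in forebrain, differed by 0.33 ± 0.18 (SE), while Syt2, its counterpart in the hindbrain and spinal cord, differed by -0.08 ± 0.07 (SE). Syt7, a sensor of slower release, differed by -0.00 with an interval from -0.49 to 0.48. Syt4, a member that does not bind calcium in the usual way, differed by 0.04, and Syt11, of the same kind, by 0.23.

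Syt5 was the synaptotagmin with the most negative difference. Its signal was 1.12, 1.39, 1.31 and 1.37 in controls and 1.38, 0.76, 0.84 and 1.33 in stressed rats. Stressed rats 2 and 3 were low, while stressed rats 1 and 4 lay within the range of the controls. The difference was -0.22 ± 0.16 (SE, limma, adjusted p = 0.452).

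Of the 7 priming factors and active zone scaffolds, 6 differed by more than 0, with a median of 0.22. The signal of Rims2, a scaffold that ties vesicles to calcium channels, was -4.89, -3.20, -4.77 and -4.55 in controls and -3.37, -3.72, -3.76 and -3.86 in stressed rats at its brightest probe. Controls 1, 3 and 4 were the lowest 3 arrays and control 2 the highest. The difference was 0.67 ± 0.36 (SE, limma, adjusted p = 0.319), 1.06 without control 2 and -0.23 with the covariate. Its 3′ probe, 5025 bases downstream, read -4.90, -4.60, -4.85 and -4.78 in controls and -4.39, -4.38, -4.61 and -4.39 in stressed rats. Stressed rat 3 and control 2 met at this probe and all other stressed rats exceeded all controls, with a difference of 0.34 ± 0.09 (SE, limma, adjusted p = 0.124).

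The other scaffolds and priming factors differed less at their brightest probes. Rims1 differed by 0.29 ± 0.14 (SE), Munc13-1 (Unc13a), which opens syntaxin for priming, by 0.25 ± 0.24, and its relative Unc13b by -0.08 ± 0.16. Piccolo (Pclo), a giant scaffold of the active zone, differed by 0.22 ± 0.14 (SE) and Erc2 by 0.10 ± 0.11.

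Bassoon (Bsn), the partner of piccolo, differed by 0.01 at its 3′ probe, with an interval from -0.17 to 0.19. Its 5′ probe, 3572 bases upstream, read -3.44, -3.15, -3.70 and -3.53 in controls and -2.84, -3.05, -3.05 and -3.05 in stressed rats. Here every stressed rat exceeded every control, control 2 included, and the difference was 0.46 ± 0.12 (SE, limma, adjusted p = 0.119). Without control 2 the Bsn 5′ probe gave 0.56 ± 0.09 (SE, limma, adjusted p = 0.00424), and with the covariate 0.22 ± 0.11 (SE, limma, adjusted p = 0.273).

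The Rab3 GTPases, which sit on vesicles and dock them, and their effector rabphilin (Rph3a) gave a median difference of 0.01, with 2 genes above 0 and 2 below. The main neuronal form Rab3a differed by 0.17 ± 0.10 (SE), Rab3c by -0.04 and Rph3a by 0.06. For Rab3b the signal was 0.49, 0.62, 0.50 and 0.67 in controls and 0.56, 0.46, -0.27 and 0.66 in stressed rats. Stressed rat 3 alone was far below the rest, and the difference of -0.22 ± 0.20 (SE, limma, adjusted p = 0.544) was -0.01 without that rat.

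The synapsins, which tether vesicles in the reserve pool, had small differences. Syn1 differed by -0.03 ± 0.12 (SE), Syn2 by 0.08 ± 0.09 with an interval from -0.13 to 0.29, and Syn3 by 0.18 ± 0.11.

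Among the 8 vesicle membrane proteins the median difference was 0.17, with 5 genes above 0 and 3 below. Sv2c, a vesicle glycoprotein, read -3.09, -2.26, -3.54 and -2.96 in controls and -2.07, -2.41, -2.40 and -2.55 in stressed rats. Every stressed rat exceeded controls 1, 3 and 4, and control 2 fell among the stressed rats. The difference was 0.60 ± 0.26 (SE, limma, adjusted p = 0.238), 0.84 without control 2 and 0.02 with the covariate.

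Sv2b, the related glycoprotein, had a signal of -4.48, -3.20, -4.57 and -4.35 in controls and -3.62, -3.60, -3.29 and -3.74 in stressed rats. Control 2 was again the highest array and the other controls were the lowest 3. The difference was 0.59 ± 0.30 (SE, limma, adjusted p = 0.299), 0.90 without control 2 and -0.15 with the covariate. Sv2a, the form present at nearly all synapses and the target of the drug levetiracetam, differed by -0.05 with an interval from -0.27 to 0.18.

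The synaptogyrins, a 4-pass membrane family of the vesicle, had differences of opposite sign. Syngr3, the only gene with a full gap between groups at its brightest probe, read 2.86, 3.26, 2.87 and 2.84 in controls and 2.78, 2.70, 2.54 and 2.78 in stressed rats. Controls 1, 3 and 4 lay just above the highest stressed rat, and control 2 lay further up. The difference was -0.25 ± 0.11 (SE, limma, adjusted p = 0.261), -0.15 without control 2 and -0.46 with the covariate. Syngr1 differed by 0.42 ± 0.18 (SE, limma, adjusted p = 0.247), with stressed rats between -1.87 and -1.67, controls 1, 3 and 4 between -2.47 and -2.40, and control 2 at -1.65. Without control 2 the Syngr1 difference was 0.62, and with the covariate -0.02.

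The synaptophysin family also held differences of both signs. Syp differed by 0.03 ± 0.12 (SE) and synaptoporin (Synpr) by -0.07 ± 0.17. At Synpr, control 2 at -1.29 and stressed rat 3 at -1.23 were both below the other 6 arrays, which lay between -0.85 and -0.62. Without control 2 the Synpr difference was -0.22, and with the covariate 0.26. For Sypl1, the family member made in many tissues, control 2 read -0.09 and the other controls 0.93, 1.01 and 1.13, against 0.97, 1.11, 1.20 and 0.96 in stressed rats. The difference of 0.32 ± 0.26 (SE) was 0.04 without control 2 and 0.90 with the covariate.

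In the endocytosis and recycling group the median difference was -0.05, with 2 genes above 0 and 3 below. Endophilin A1 (Sh3gl2), which bends the membrane of the endocytic neck, had the lowest adjusted p of all 44 brightest probes. It read -2.66, -1.75, -2.37 and -2.32 in controls and -1.87, -1.52, -1.67 and -1.85 in stressed rats. Stressed rats exceeded controls 1, 3 and 4, and control 2 fell among them. The difference was 0.55 ± 0.19 (SE, limma, adjusted p = 0.182), 0.73 without control 2 and 0.13 with the covariate.

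Synaptojanin 1 (Synj1), the lipid phosphatase that helps to uncoat vesicles, had a negative difference at both of its probes. The brightest read 2.59, 2.69, 2.47 and 2.52 in controls and 2.50, 2.36, 2.40 and 2.34 in stressed rats. Stressed rat 1 reached the range of the controls and the other 3 stressed rats lay below it. The difference was -0.17 ± 0.08 (SE, limma, adjusted p = 0.258), and the second probe, 296 bases away, gave -0.19 ± 0.09 (SE). With the covariate the brightest Synj1 probe gave -0.27, and without control 2 -0.13. Dynamin 1 (Dnm1), the GTPase that cuts vesicles free, differed by -0.13 ± 0.12 (SE), and amphiphysin (Amph), which recruits it, by 0.01 with an interval from -0.18 to 0.21. Amphiphysin 2 (Bin1) read 3.69, 3.92, 3.81 and 3.77 in controls and 3.71, 3.78, 3.85 and 3.66 in stressed rats, a difference of -0.05 ± 0.08 (SE), and its other probe gave 0.08 ± 0.11. The Bin1 difference was -0.15 with the covariate and -0.01 without control 2.

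**Figure D3:**
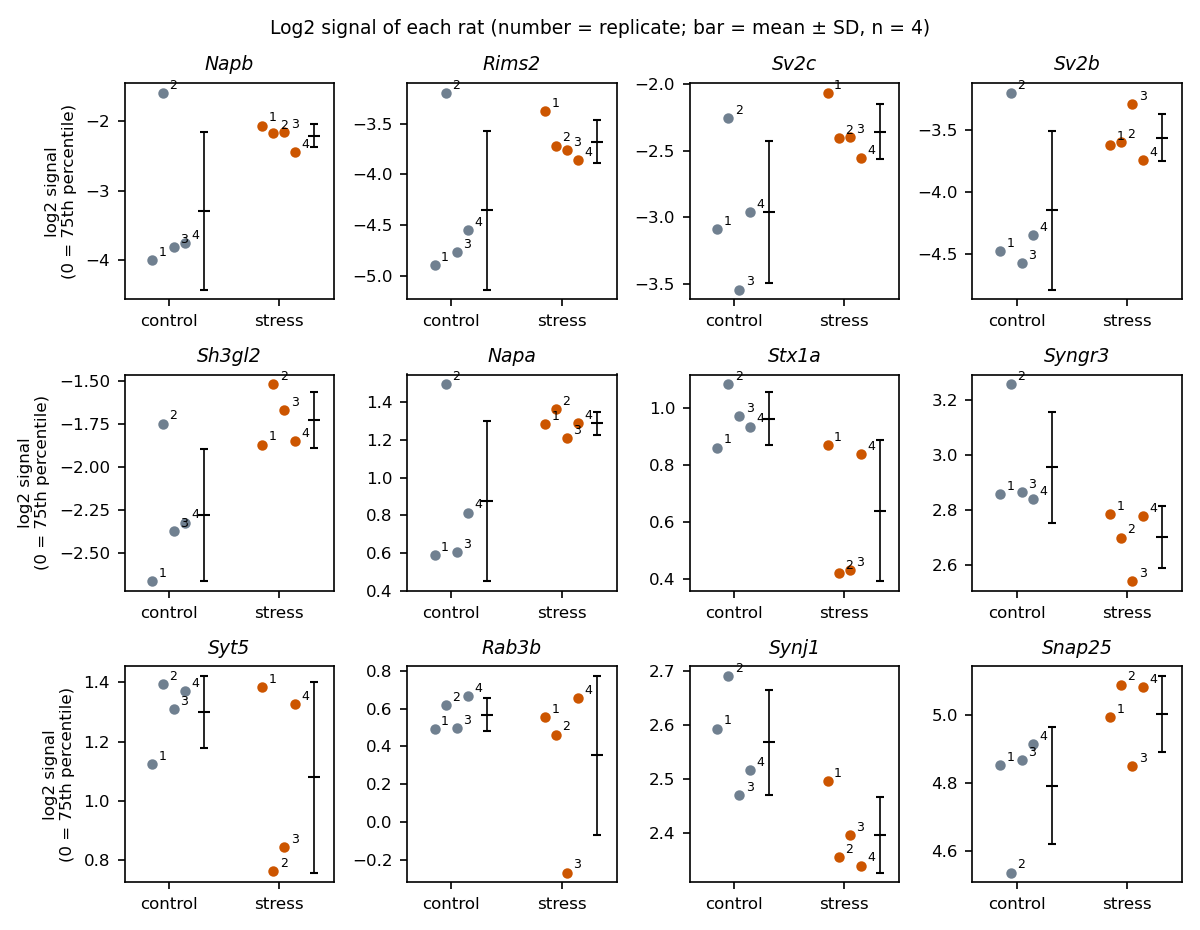
Log2 signal (0 is the 75th percentile of the array) of each rat at the brightest probe of 12 release machinery genes, with control at left, stress at right, replicate numbers beside the points, and bars for mean ± SD (n = 4). Control 2 lies at or above the stressed rats at Napb, Rims2, Sv2b and Napa, and stressed rats 2 and 3 lie low at Stx1a and Syt5.

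Genes with 2 probes gave a separate difference at each. The 5′ probe gave the more positive difference in 9 of 11 genes, and in 8 of 8 whose probes were at least 300 bases apart, by a median of 0.34. Among the 1880 transcripts of other genes spaced this way it did so in 80.2%, by a median of 0.28, so the direction was common across the array. Release genes were paired by gene symbol and the other genes by transcript. Syt4 differed by 0.50 at its 5′ probe and 0.04 at its 3′ probe, Erc2 by 0.46 and 0.10, Pclo by 0.41 and 0.22, and Cplx1 by 0.22 and 0.07. The Pclo probes were annotated to different transcripts of the gene, so their spacing is not measured along the same mRNA. In 7 of the 8 pairs the 5′ probe was also the dimmer one, Rims2 being the exception, and position and signal level were not separated. With the end difference as a covariate, the 5′ probe was the more positive in 3 of 8 pairs, Vamp1, Bsn and Snap25. The covariate is the median over the other transcripts, so these give no value to set beside it. Leaving out control 2 instead gave 8 of 8 pairs and 80.5% of the others.

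**Figure D4:**
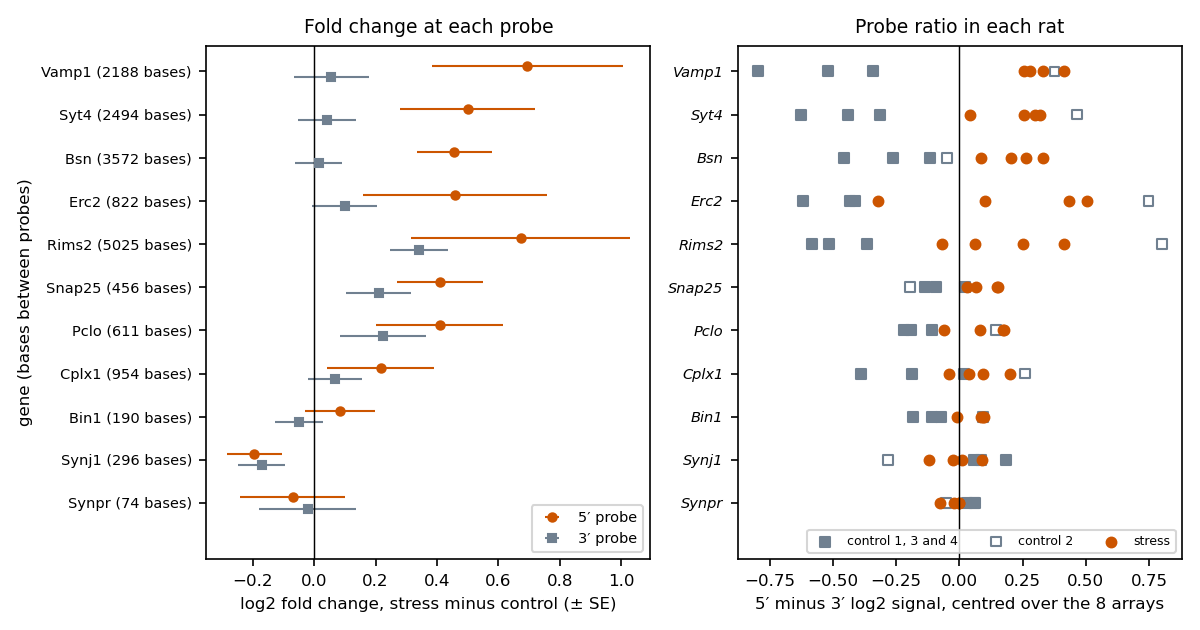
Left, log2 fold change (stress minus control, ± SE) at the 5′ and 3′ probe of the 11 genes with a pair of probes, with the bases between them in brackets. The Pclo probes were annotated to different transcripts. Right, log2 signal of the 5′ minus the 3′ probe in each rat, centred over the 8 arrays, where control 2 (open squares) lies above the other controls in 8 of 11 genes and below them in Snap25, Synj1 and Synpr.

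The fits that gave control 2 less or no weight called genes, nearly all of them higher under stress. Without it, 13 of 44 genes (29.5%) were higher at an adjusted p below 0.1 by limma and none was lower, where 40.8% of all gene symbols passed (26.9% higher, 13.9% lower). They were Napa and Napb of SNARE disassembly, Syt1 and Syt11, the active zone and priming genes Unc13a, Rims1, Rims2 and Pclo, the Rab3 effector Rph3a, the membrane proteins Syngr1, Sv2b and Sv2c, and Sh3gl2. With control 2 left out, the end difference was -0.30, -0.30 and -0.18 in the remaining controls and 0.09 to 0.17 in stressed rats. The end difference and stress therefore cannot be told apart in that fit. With weights estimated for each array, which gave control 2 a weight of 0.107, 20 genes were higher and 2 lower (50%), against 49.3% of all symbols (31.3% higher, 18% lower). With the covariate, 5 genes passed (11.4%), against 10.2% of all symbols (4.46% higher, 5.7% lower), of which Snap25 and Sypl1 were higher and Syt7, Rph3a and Syngr3 lower. Of the 13 genes called higher without control 2, 11 had a negative difference with the covariate, all but Sv2c and Sh3gl2. For genes not given above these were -0.19 at Syt11, -0.34 at Unc13a, -0.05 at Pclo, and -0.01 at both Syt1 and Rims1. Rph3a was called in both fits, higher in the first and lower in the last. Both fits turn on control 2, through which the covariate mainly varied within groups. A change of sign between them is therefore no separate check of either.

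Related genes outside the 44 gave the wider pathway. Of 65 other genes of vesicle priming, fusion and recycling, 63 were on the array and 60 could be tested, with a median difference of -0.01. By limma at an adjusted p below 0.1, 2 rose and 2 fell, where 3.51% of all symbols passed. The clathrin adaptor Picalm rose by 0.71 ± 0.15 (SE, limma, adjusted p = 0.0784) and endophilin A3 (Sh3gl3), a relative of Sh3gl2, by 0.51 ± 0.09 (SE, limma, adjusted p = 0.0597). The clathrin light chain Cltb fell, with a difference of -0.29 ± 0.06 (SE, limma, adjusted p = 0.0802). Leaving out any 1 array other than control 2 left 0 or 1 of the 60 called. With 1 stressed rat left out, 0 to 0.254% of all symbols passed. Leaving out control 2 gave 27, where 40.8% of all symbols passed. Of 7 vesicular transmitter transporters, the glutamate transporters Slc17a7 and Slc17a8 were not well above background on any array, and 0 of the other 5 passed, with 3 at an unadjusted p below 0.05 (19.6% of all symbols). Among these 5, Slc17a6, the glutamate transporter of spinal neurons, differed by -0.26 ± 0.09 (SE, limma, adjusted p = 0.181), and Slc32a1, which loads GABA and glycine, by 0.07 ± 0.09. Besides Slc17a6, the unadjusted threshold was passed by Slc18a1, at -0.38 ± 0.12 (SE), and Slc18a2, at 1.87 ± 0.79 (SE). At Slc18a2 control 2 read -2.55 and the other controls -6.19, -6.10 and -5.83, against -3.16, -3.24, -2.87 and -3.89 in stressed rats.

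Markers of the cell types in the segment were checked beside these values. All 13 neuronal markers on the array were detected, and their summed linear signal, divided by the 75th percentile of each array, ranged from 275.6 to 303.1 in controls and from 277.5 to 312.3 in stressed rats. For the 44 release machinery genes it was 212.8 to 222.4 in controls 1, 3 and 4, 251.1 in control 2 and 223.8 to 241.6 in stressed rats. Linear sums are carried by the brightest probes, here mostly Cplx1 and Vamp1, with mean log2 signals of 5.92 and 5.82 in controls. Dim genes add little to them. Of the 13 neuronal markers, 7 had a positive and 6 a negative difference, with a median of 0.03. Only Eno2 among them passed by limma at an adjusted p below 0.1, lower under stress with a difference of -0.37. The oligodendrocyte gene Mog (0.90) and the endothelial gene Pecam1 (0.41) also passed, both higher, where 3.51% of all symbols passed. All 8 astrocyte and all 8 microglia markers were detected and none passed the test. The oligodendrocyte sum was 341.7 in control 2 and 234.9 to 277.2 in the other controls, against 257.7 to 353.6 in stressed rats. Schwann cell markers, of which 4 were detected, summed to between 6.98 and 72.63 in controls and between 6.78 and 21.58 in stressed rats. The part of cell composition in the differences of the release machinery was not tested.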

How the data were processed

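RNA of the lumbar L6S1 cord of 4 stressed and 4 control male rats was hybridised with Cy3 to Agilent rat arrays. The authors deposited the output of Feature Extraction 10.7.3.1 for each spot and a value table of the same signal, rounded (largest difference 0.05). Per the file headers, the deposited intensity of each spot was made by the scanner software of the authors, which subtracted the background and removed spatial trends on each array. Nothing in these files was normalised between arrays, and the paper names dChip without stating a normalisation or test.

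After 4259 control spots were left out, 58717 spots remained. Spots with an outlier flag were set to missing, after which 5 probes bright enough for the test lacked a value on an array and stayed out of the fit. Log2 processed signals were scaled to each array's 75th percentile, which was 2152 ± 228 in control and 1861 ± 88.5 in stressed rats (SD, n = 4; two-sided exact permutation test over 70 choices, p = 0.114). Replicate spots were averaged, and probes with at least 0.5 of their spots well above background on at least 4 of 8 arrays were tested. Each array had 23005 to 24066 probes well above background, and the number of arrays limits the precision. Groups were compared with limma 3.58.1 (lmFit, eBayes) without covariates (R 4.3.3, package data.table at version 1.17.8), and p values were adjusted over all 23678 tested probes. Sets of related genes were described by counts and medians. The calculation was checked on simulated data.

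Groups were taken from the sample labels. The genes, lists and rules were chosen with earlier results of these data known. Array values are given in full for genes with an adjusted p below 0.1, the 5 highest and 5 lowest differences, and genes whose second probe had another sign or differed by over 0.5. Other genes with array values were chosen after their values were seen. The 18 alternatives were normexp background correction (offset 50), quantile normalisation, the value table, testing dim probes too, testing only probes above background on all 8 arrays, a robust variance trend, array weights, the replicate number as a block, 1 probe per gene symbol, the difference between 5′ and 3′ probes on each array as a covariate, and leaving out each array. Positions of probes on rn4 were read from the files. Exon and UTR annotation was not used here, and the miRNA arrays and PCR were not analysed here. The values of 1 of the called release genes are not reported here.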

Additional observations from a re-analysis of the deposited data

Results flagged for a closer look

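In 13 of the 92 groups of 4 values examined (44 genes and 2 measures of each array, in either group), 1 array lay far from the other 3, by the ratio of its gap to the whole range of the group (Dixon's ratio, above its 95% critical value). Chance gives about 1 in 20 groups, or 4.6 here. The groups share the same 8 arrays, so 1 deviant array can be flagged at many genes at once. The flagged share over all gene symbols was not computed, so the count gives no excess for these genes. In 11 of the 13 groups the array was control replicate 2, which over all symbols was the highest control at 53.6% and the lowest at 27.2%. It was the highest control at Cplx2 (ratio 0.948), Syngr3 (0.941), Syngr1 (0.91), Napb (0.897), Unc13a (0.865), Syt11 (0.841), Rph3a (0.84) and Sv2b (0.835), and the lowest at Syt2 (0.854), Snap25 (0.836) and Sypl1 (0.834). In the other 2 groups the array was stress replicate 3, which was the highest stressed rat at Syngr1 (0.874) and the lowest at Amph (0.853), the adaptor of dynamin in endocytosis.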

How the results depend on the processing

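The count of release machinery genes called at an adjusted p below 0.1 (limma) ranged from 0 to 13 when arrays were left out in turn, at 0.05 from 0 to 12, and for single probes from 0 to 22. All of these calls arose without control replicate 2, where 40.8% of all gene symbols passed at 0.1. Leaving out any other array gave 0 genes. Over all symbols, 0, 0, 0.112 and 0.254% passed without stressed rats 1 to 4, and 0.112 and 0% without controls 1 and 3. Without each array in turn the median difference ranged from 0.03 to 0.13, and the called genes among the other 60 release genes from 0 to 27, again highest without control 2. Array weights gave 22 genes, 13 at 0.05, 32 probes and 33 of the other release genes, where 49.3% of all symbols passed at 0.1. For these alternative fits, shares of all symbols are given at 0.1 only. The covariate gave 5 genes and 6 probes, where 10.2% of all symbols passed. It moved the median to -0.066, against -0.05 over all gene symbols. With no filter on dim probes 2 of 55 probes were called, the 5′ probe of Bsn and the 3′ probe of Rims2, where 10% of all gene symbols passed. Of the other release genes, normexp background correction called 2 and the replicate block 0, where 0.867% and 0% of all symbols passed. The remaining settings, quantile normalisation, the value table, testing only probes above background on all 8 arrays, a robust variance trend and 1 probe per gene, changed none of these counts by more than 1.5 times. Of the fold changes of the 12 genes selected by rule, 197 kept their direction and side of the threshold, 14 passed it, and 5 turned in direction. Turned values were -0.21 (Napb), -0.23 (Rims2), -0.15 (Sv2b) and -0.18 (Vamp1) with the covariate, and -0.0034 for Vamp1 with quantile normalisation. The cause was not tested. Same-numbered rats deviated together weakly (r = 0.0952, 0.12, -0.0869 and 0.305 for replicates 1 to 4). Of the arrays, 0 of 4 stressed and 1 of 4 control correlated best with their own number, so the numbers were not taken as pairs. In both groups the number was also the slide column of the array, so number and column cannot be told apart. The replicate block called 0 of the 44 genes and 0% of all gene symbols.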
